A study of Mus musculus with 9 samples.

Results

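The genes described here are 39 genes of cell division and DNA replication, chosen by symbol: proliferation markers, cyclins, the kinase Cdk1, the replicative helicase and its loaders, enzymes of nucleotide supply, and proteins of the mitotic spindle. All 39 were found under their own symbols among the 35275 entries of a table of liver RNA-seq counts, and 29 had enough counts to be tested. The 9 libraries came from liver of C57BL/6 mice in 3 groups of 3. Vehicle mice were given PBS. The second group was given AdipoRon, a synthetic compound that activates adiponectin receptors, and the third AdipoRonPEG5, an analog of AdipoRon that carries polyethylene glycol. The protocol in the labels gives 5 mg/kg, injected 2 times a day over 5 days, for every agent including PBS, so the dose of each compound is uncertain. The sample labels state no genetic change, diet, disease model, age or sex, and they do not say whether each library came from a separate animal; the p-values below therefore measure the spread between libraries, which may be technical in part.

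Cells that leave rest pass an ordered series of steps. D-type and E-type cyclins free the E2F factors, which switch on the genes of DNA replication. Origins are licensed when Cdc6 and Cdt1 load the ring-shaped Mcm2 to Mcm7 helicase, and in S phase the helicase unwinds DNA ahead of polymerases held by the Pcna clamp. Later, Cdk1 with B-type cyclins drives mitosis, and the anaphase-promoting complex ends it. Most hepatocytes of an adult liver are at rest but can re-enter the cycle, while resident and incoming immune cells also divide, so that bulk liver RNA mixes the sources. In bulk RNA, fewer cells of a type and less RNA per cell cannot be told apart.

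With AdipoRonPEG5, 11 of the 29 tested genes were higher than with vehicle (37.9%) and 0 were lower, against 9.55% higher and 7.63% lower among all 13151 genes tested. The 11 were the proliferation markers Mki67, Top2a and Uhrf1, the kinase Cdk1, the licensing factor Cdt1, the helicase subunits Mcm2, Mcm3, Mcm4, Mcm5 and Mcm6, and the ubiquitin-conjugating enzyme Ube2c. With AdipoRon, 3 of the 29 were higher (Mki67, Top2a and Cdk1), against 3.80% of all genes, and 0 were lower, against 1.40%. Between the compounds, only the cyclin gene Ccnd1 passed, lower with AdipoRonPEG5 than with AdipoRon, against 2.71% of all genes; 0 were higher, against 2.68%. A gene passed when its p in edgeR's quasi-likelihood test, adjusted by Benjamini and Hochberg's method over all genes tested, was under 0.05.

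Behind the 0 lower with AdipoRonPEG5, 2 genes were lower at an unadjusted p under 0.05, and DESeq2 and limma-voom each called 0. No gene was lower with AdipoRon at that unadjusted level, nor by DESeq2 or limma-voom (0 each). Behind the 0 higher between the compounds, 6 were higher at an unadjusted p under 0.05, while DESeq2 called 2 (Mcm2 and Mcm6) and limma-voom 0. Ccnd1 was called lower by DESeq2 and not by limma-voom. Among all 13151 genes, 2144 were higher and 1990 lower at that unadjusted level with AdipoRonPEG5 against vehicle. These counts were 1649 and 1235 with AdipoRon, and 1335 and 1528 between the compounds. In the same order, DESeq2 called 1245 and 1093, 626 and 364, and 509 and 482 of them. For limma-voom the numbers were 1335 and 1033, 523 and 213, and 377 and 334. They apply equally to the counts of this kind given below. The median log2 difference of the 29 genes was 0.70 for AdipoRonPEG5 against vehicle, 0.45 for AdipoRon against vehicle and 0.23 between the compounds, and that of all genes tested was -0.0013, 0.0057 and -0.013. A gene that vehicle libraries hardly express could be tested only through the compound groups. Of the 29, 9 were under the filter's 0.627 CPM (counts per 1e+06 counts, here without TMM scaling) in at least 1 vehicle library, among them 5 of the 11. The other 20 were at or above it in every vehicle library, and Cdt1 and the 5 Mcm genes are among them. The CPM values of genes given below are TMM-scaled.

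**Figure D1:**
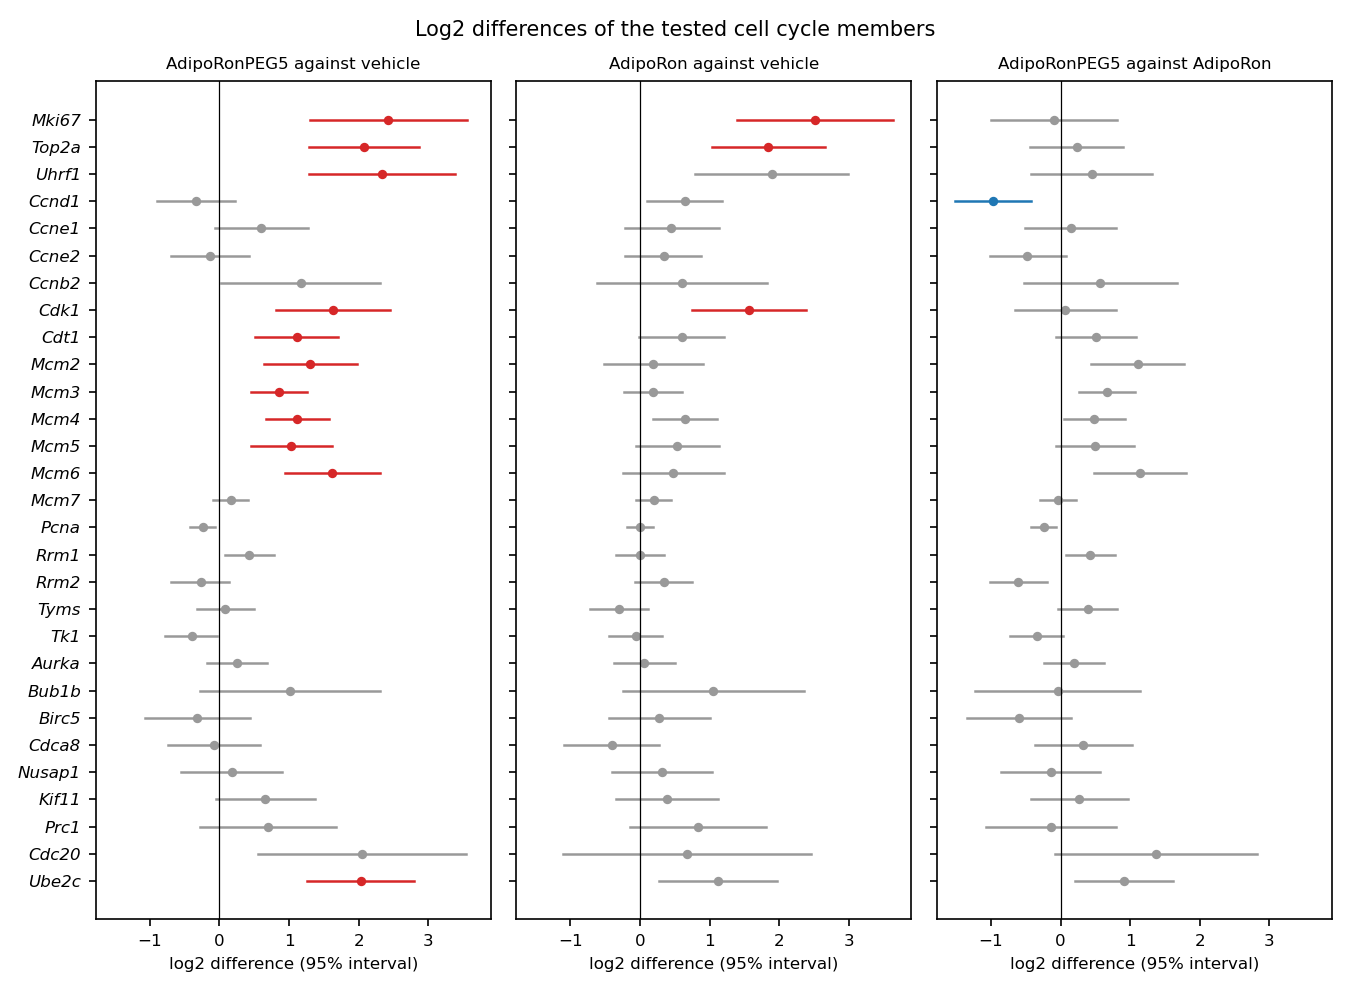
Log2 differences of the 29 tested cell cycle genes with 95% intervals, in order of role; red and blue points passed as higher and lower, grey points did not pass. In the left panel 11 genes are red, in the middle panel 3, and in the right panel Ccnd1 alone is coloured, at -0.97.

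Promoter sequences are shown for 4 of these genes, the gene of lowest p with a promoter entry in each of 4 roles because E2F sites are known from promoters of S-phase genes, and CCAAT boxes and CHR elements from those of mitotic genes. They come from RefSeq on GRCm38.p6, which held 32 of the 39 genes and 10 of the 12 called in any comparison; Mcm4 and Ccnd1 had no entry. Each run is 211 bases, 5' to 3' on the gene's strand, and ends 40 bases before the annotated start.
Top2a (chr11:99024229-99024439, minus strand): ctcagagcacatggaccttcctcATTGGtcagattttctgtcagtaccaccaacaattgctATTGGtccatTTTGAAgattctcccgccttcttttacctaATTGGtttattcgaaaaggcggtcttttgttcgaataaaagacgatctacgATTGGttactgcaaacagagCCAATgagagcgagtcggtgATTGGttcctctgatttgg
Cdk1 (chr10:69352952-69353162, minus strand): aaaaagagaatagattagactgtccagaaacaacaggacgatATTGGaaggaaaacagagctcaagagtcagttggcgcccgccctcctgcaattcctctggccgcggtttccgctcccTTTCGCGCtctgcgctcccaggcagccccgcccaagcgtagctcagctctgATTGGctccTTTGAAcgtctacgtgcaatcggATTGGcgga
Mcm6 (chr1:128359745-128359955, minus strand): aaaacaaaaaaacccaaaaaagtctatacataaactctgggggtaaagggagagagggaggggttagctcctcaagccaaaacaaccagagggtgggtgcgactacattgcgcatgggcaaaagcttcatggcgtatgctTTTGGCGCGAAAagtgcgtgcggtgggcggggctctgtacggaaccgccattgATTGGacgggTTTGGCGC
Ube2c (chr2:164769679-164769889, plus strand): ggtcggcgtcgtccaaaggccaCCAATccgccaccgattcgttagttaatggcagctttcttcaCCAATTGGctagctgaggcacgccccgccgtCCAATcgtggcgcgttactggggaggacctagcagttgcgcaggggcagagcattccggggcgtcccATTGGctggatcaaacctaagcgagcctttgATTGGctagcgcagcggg
Capitals mark matches, on either strand, to the CHR element TTTGAA, to CCAAT, which reads ATTGG on the other strand, and to 3 spellings of an E2F site (TTTCCCGC, TTTGGCGC and TTTCGCGC); adjoining capitals can hold overlapping matches. Top2a encodes DNA topoisomerase II alpha, which untangles replicated chromosomes; its window of 250 bases before the start holds 6 CCAAT and 2 CHR matches, 1 of them after the printed run. Cdk1 has 3 CCAAT matches, 2 CHR matches, 1 of them after the printed run, and an E2F match 131 to 124 bases before the start. Mcm6 has 3 E2F matches, at 110 to 103, 106 to 99 and 47 to 40 bases before the start, of which the first and the second overlap on opposite strands, and 2 CCAAT matches, 1 of them after the printed run. Ube2c has 6 CCAAT matches and 1 CHR match, which lies after the printed run.

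Over the 250 bases before the start, CHR was found in 9 of the 32 genes (28.1%), CCAAT in 25 (78.1%) and an E2F spelling in 6 (18.8%). Among all 32851 promoters of the table the shares were 16%, 33.8% and 1.53%. The units are unlike: these shares are per promoter, whereas a gene with several entries was counted as holding a motif if any entry did. Of the 10 called genes with an entry, 5 had CHR, 9 CCAAT and 4 an E2F spelling; of the other 22, 4, 16 and 2 did. A match describes letters only, and its absence says nothing of a factor.

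The proliferation markers had the largest differences. Mki67, which coats mitotic chromosomes and marks cycling cells, was at 0.231, 0.598 and 0.744 CPM in the vehicle libraries, 3.64, 2.11 and 2.05 with AdipoRon and 1.17, 2.96 and 3.14 with AdipoRonPEG5. Every library of either compound was above every vehicle library, and the compounds overlapped. The log2 difference for AdipoRonPEG5 was 2.42 ± 0.51 (SE, adjusted p = 0.00912), and for AdipoRon 2.52 ± 0.51 (adjusted p = 0.0208). Between the compounds it was -0.095, with a 95% interval from -1.0 to 0.81.

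Top2a was at 0.308, 0.747 and 0.446 CPM with vehicle, 1.85, 1.56 and 1.5 with AdipoRon and 1.36, 2.23 and 2.16 with AdipoRonPEG5. Again the vehicle libraries lay apart from both compounds, at 2.07 ± 0.36 (adjusted p = 0.00345) for AdipoRonPEG5 and 1.84 ± 0.37 (adjusted p = 0.0192) for AdipoRon. Uhrf1, which brings the maintenance DNA methyltransferase to newly copied DNA, was at 0.154, 0.149 and 0.372 CPM with vehicle, 0.987, 0.833 and 0.478 with AdipoRon and 1.25, 1.23 and 0.679 with AdipoRonPEG5 (libraries 2, 3 and 1). It passed for AdipoRonPEG5 (2.34 ± 0.47, adjusted p = 0.00767) and not for AdipoRon (1.89 ± 0.50, adjusted p = 0.0535), although neither compound overlapped vehicle; without vehicle 3 the AdipoRon difference passed (2.29, adjusted p = 0.0419). The difference between the compounds was 0.45, with an interval from -0.42 to 1.32. These are few reads: the vehicle group holds 27 counts of Mki67, 28 of Top2a and 13 of Uhrf1. Without vehicle 3 and AdipoRonPEG5 1, the log2 difference of Mki67 with AdipoRonPEG5 was 3.13 and that of Uhrf1 2.97. Without vehicle 1, the AdipoRon difference of Mki67 was 1.93 and no longer passed; it was also lost without vehicle 2 or AdipoRon 1 (adjusted p = 0.0579 to 0.0803). The AdipoRon call of Top2a was lost without vehicle 1, AdipoRon 1 or AdipoRon 2 (adjusted p = 0.0522 to 0.0862).

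**Figure D2:**
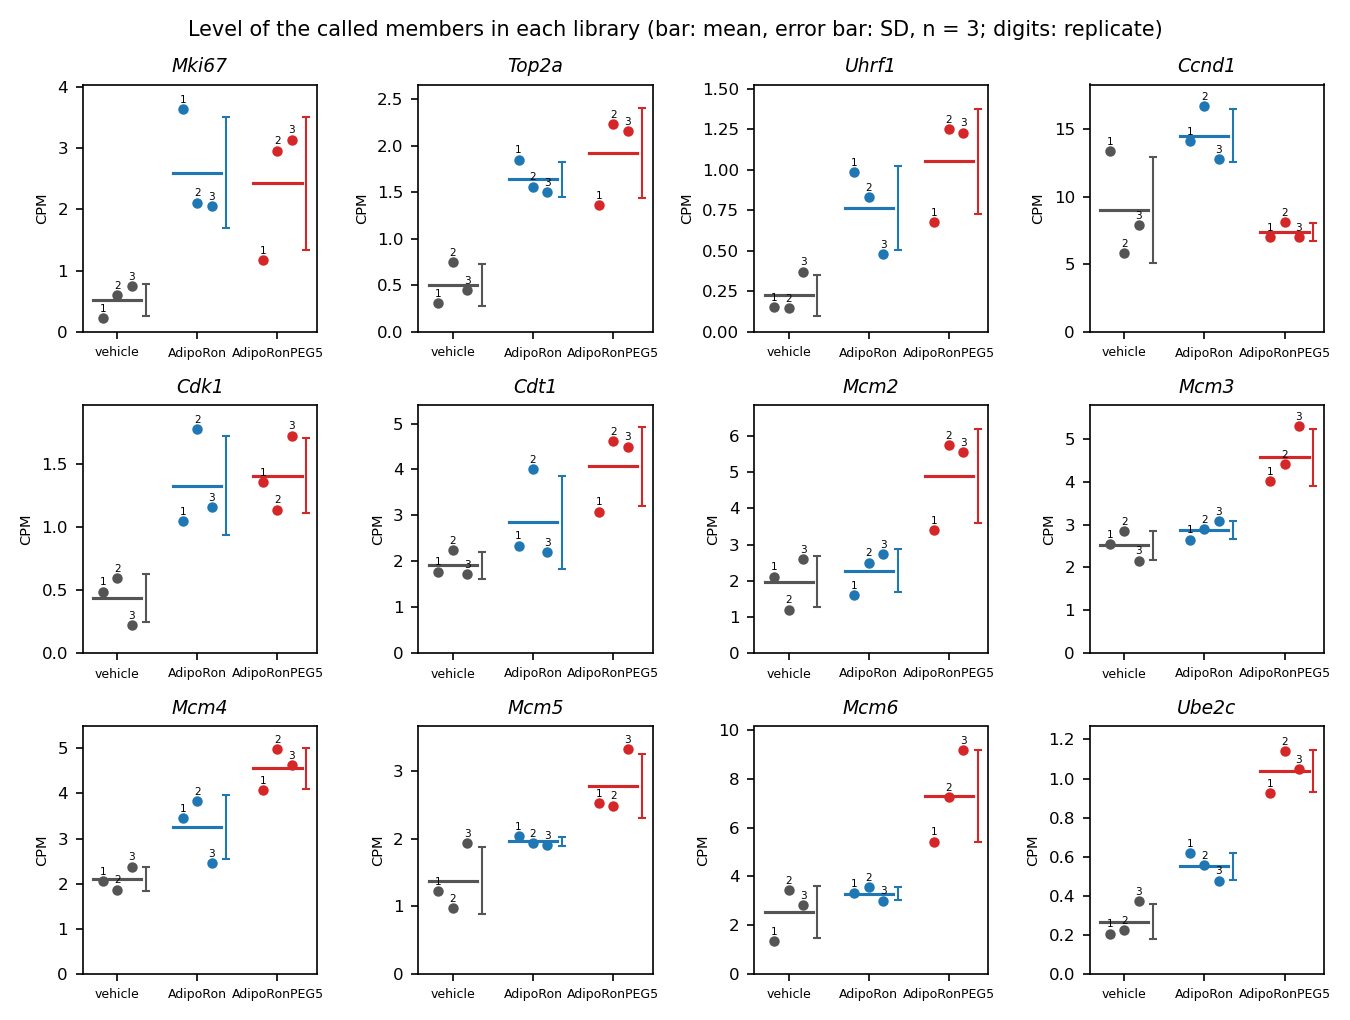
CPM of the 12 genes called in any comparison in each of the 9 libraries; each point is a library with its replicate number, the horizontal line the mean and the error bar the SD of 3 libraries. For Mcm6 the AdipoRonPEG5 libraries (5.43 to 9.19 CPM) lie above all the others, whereas for Mki67 and Cdk1 the compounds share 1 range above vehicle.

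None of the 3 cyclins of G1 and of the G1 to S step passed against vehicle in edgeR, DESeq2 or limma-voom; at an unadjusted p under 0.05, 1 was higher with AdipoRon and 0 with AdipoRonPEG5. Ccnd1, the D-type cyclin through which growth signals enter the cycle, was at 13.4, 5.83 and 7.88 CPM with vehicle, 14.1, 16.7 and 12.8 with AdipoRon and 7.03, 8.15 and 7.03 with AdipoRonPEG5. The AdipoRonPEG5 libraries all lay below the AdipoRon libraries, at -0.97 ± 0.25 (adjusted p = 0.0483), and overlapped vehicle at -0.33 (interval -0.89 to 0.22, adjusted p = 0.405). AdipoRon against vehicle was 0.64 ± 0.24 (adjusted p = 0.155), and 1.08 without vehicle 1, where it passed (adjusted p = 0.0219). The call between compounds stood just under the threshold and was lost in 11 of 19 other settings, among them leaving out any 1 library of either compound (adjusted p = 0.050 to 0.144 over the 11). About 23.4% of the Ccnd1 exon bases are shared with LTO1 on the other strand in GENCODE M21, and the strand setting of the counts is not given, so reads of the pair cannot be told apart there. The E-type cyclins, partners of Cdk2 at the start of S phase, passed in no comparison: with AdipoRonPEG5 against vehicle, Ccne1 was at 0.60 (interval -0.068 to 1.27) and Ccne2 at -0.14 (interval -0.70 to 0.42). Without vehicle 3, Ccne1 was at 0.98 and passed (adjusted p = 0.0302).

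Cdk1, the kinase that starts mitosis, was at 0.488, 0.598 and 0.223 CPM with vehicle, 1.05, 1.78 and 1.16 with AdipoRon and 1.36, 1.14 and 1.73 with AdipoRonPEG5. All compound libraries were above all vehicle libraries, at 1.63 ± 0.37 for AdipoRonPEG5 (adjusted p = 0.0132) and 1.56 ± 0.37 for AdipoRon (adjusted p = 0.0390), and the compounds differed by 0.066 (interval -0.66 to 0.79). The AdipoRon call was lost in 12 of 19 settings, including each omission of 1 library (adjusted p = 0.0505 to 0.134 over the 12), and the AdipoRonPEG5 call without AdipoRonPEG5 3 and with vehicle 3 and AdipoRonPEG5 1 both left out (0.0506 to 0.0537). Ccnb2, a B-type cyclin, was at 0.392 ± 0.176 CPM (SD, n = 3) with vehicle and 0.822 ± 0.396 with AdipoRonPEG5 and did not pass (1.17, interval 0.026 to 2.31), except with vehicle 3 and AdipoRonPEG5 1 both left out (1.84, adjusted p = 0.0404). The cyclin genes Ccna2 and Ccnb1 had too few counts to be tested.

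Among the chosen genes, the role of origin licensing and the replicative helicase held most of the AdipoRonPEG5 calls. In this role 6 of 7 tested genes passed, against 0 with AdipoRon. With AdipoRon, 1 passed an unadjusted p under 0.05, and DESeq2 and limma-voom each called 0. A further list of origin licensing and firing genes, described below, gave 0 of 13 higher with AdipoRonPEG5 against vehicle in edgeR, against 9.55% of all genes. Cdt1, which loads the helicase, was at 1.77, 2.24 and 1.71 CPM with vehicle, 2.34, 4.0 and 2.19 with AdipoRon and 3.08, 4.62 and 4.50 with AdipoRonPEG5. Only the AdipoRonPEG5 libraries lay clear of vehicle (1.11 ± 0.27, adjusted p = 0.0181), and the call was lost without vehicle 1, AdipoRonPEG5 2 or AdipoRonPEG5 3 (adjusted p = 0.0636 to 0.0717). The AdipoRon difference of Cdt1 was 0.60 (interval -0.013 to 1.21).

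Mcm6 had the largest difference of the helicase subunits: 1.36, 3.44 and 2.83 CPM with vehicle, 3.33, 3.55 and 3.01 with AdipoRon, and 5.43, 7.27 and 9.19 with AdipoRonPEG5. The AdipoRonPEG5 libraries were above all 6 others, 3.07-fold higher than vehicle (log2 1.62 ± 0.31, adjusted p = 0.00584), and AdipoRon overlapped vehicle (0.48, interval -0.24 to 1.2). Mcm2 was at 2.11, 1.2 and 2.60 CPM with vehicle, 1.60, 2.5 and 2.73 with AdipoRon and 3.39, 5.76 and 5.55 with AdipoRonPEG5, with the same order of groups. It was 2.46-fold higher than vehicle with AdipoRonPEG5 (1.30 ± 0.30, adjusted p = 0.0141), a call lost without AdipoRonPEG5 2 or 3 (adjusted p = 0.0542 to 0.0609), and at 0.19 with AdipoRon (interval -0.52 to 0.90). Mcm4 was at 2.06, 1.87 and 2.38 CPM with vehicle, 3.46, 3.83 and 2.46 with AdipoRon and 4.07, 4.98 and 4.62 with AdipoRonPEG5. Here AdipoRon lay between the other groups without overlap, at 0.64 (interval 0.18 to 1.10, adjusted p = 0.105), below AdipoRonPEG5 at 1.12 ± 0.20 (adjusted p = 0.00460). Mcm3 was 1.81-fold higher with AdipoRonPEG5 than with vehicle (0.86 ± 0.18, adjusted p = 0.00932), with 4.01 to 5.30 CPM against 2.16 to 2.84, and 2.65 to 3.08 with AdipoRon. Mcm5 was 2.04-fold higher (1.03 ± 0.26, adjusted p = 0.0212), with 2.49 to 3.33 CPM against 0.972 to 1.93, and 1.91 to 2.04 with AdipoRon; the call was lost without vehicle 1, vehicle 2 or AdipoRonPEG5 3 (adjusted p = 0.0737 to 0.0858).

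Mcm7, the last subunit of the ring, passed in no comparison: 11.6, 13.8 and 10.8 CPM with vehicle, 13.8, 14.6 and 13.0 with AdipoRon and 14.3, 13.4 and 12.8 with AdipoRonPEG5. The groups overlapped, and the difference of AdipoRonPEG5 from vehicle was 0.16, with an interval from -0.090 to 0.41 that lies below those of Mcm3, Mcm4, Mcm5, Mcm6 and Mcm2; the difference between subunits was not tested. Per length, in the authors' FPKM, Mcm7 in vehicle stood at 3.91, above the other 5 subunits at 0.384 (Mcm5) to 0.703 (Mcm3), although the intact ring holds 1 copy of each. In GENCODE M21 the Mcm7 exons overlap those of Ap4m1 over 7.25% of their bases and of Cops6 over 1.45%, both on the other strand, and host Mir25 and Mir93.

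**Figure D3:**
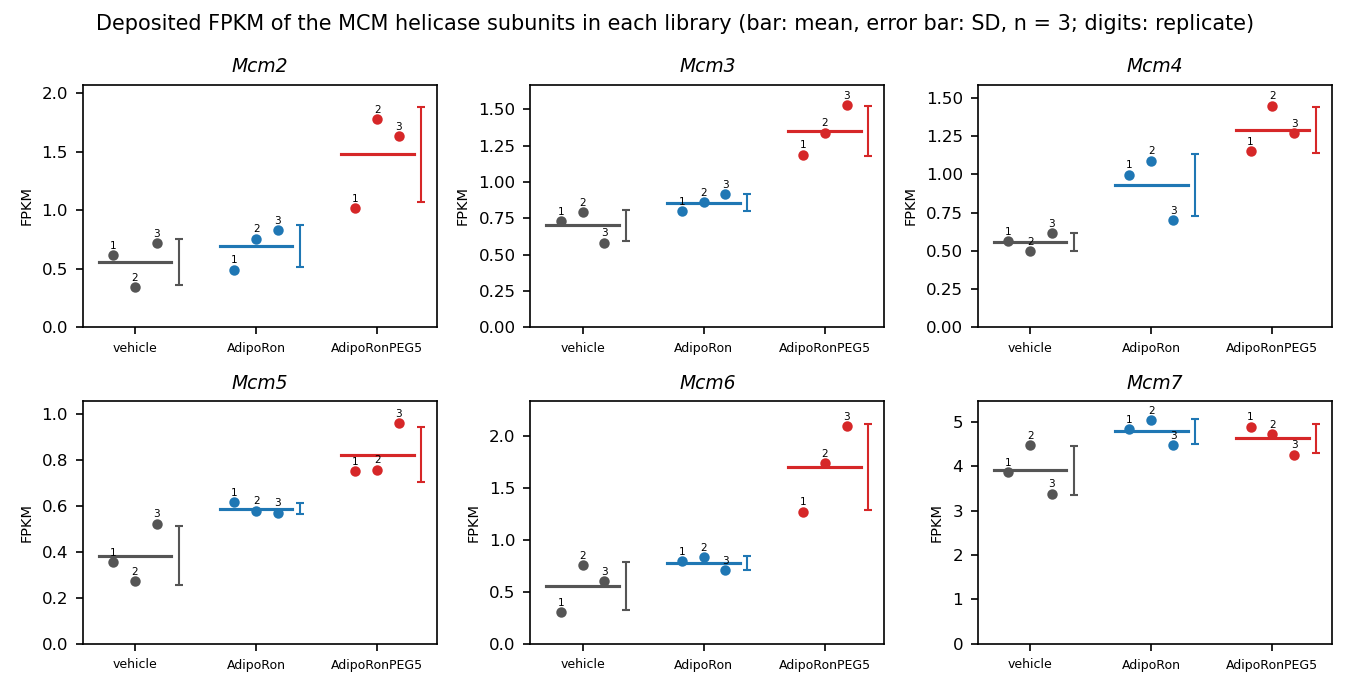
FPKM, as deposited, of the 6 MCM helicase subunits in each library; points are libraries with replicate numbers, lines means and error bars SD of 3 libraries. The AdipoRonPEG5 libraries lie above the rest for Mcm2 to Mcm6, and the 3 groups overlap for Mcm7 at a level several times higher.

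Between the compounds, none of the 6 subunits passed in edgeR, with 3 at an adjusted p near the threshold: Mcm6 was at 1.14 (interval 0.48 to 1.80, adjusted p = 0.0518), Mcm3 at 0.67 (0.27 to 1.07, adjusted p = 0.0580) and Mcm2 at 1.11 (0.44 to 1.77, adjusted p = 0.0590). Mcm6 passed in 9 of 19 other settings (adjusted p from 0.00714 to 0.169 over all 19), Mcm2 in 5 and Mcm3 in 0. Among these were the omission of any 1 vehicle library for Mcm6 (adjusted p = 0.0155 to 0.0489) and of vehicle 3 for Mcm2 (adjusted p = 0.0420). For Mcm4 the difference was 0.48 (0.047 to 0.92) and for Mcm5 0.50 (-0.061 to 1.06). For 7 of the 29 tested genes every AdipoRonPEG5 library lay above every AdipoRon library, against 13.9% of all genes: Mcm2 to Mcm6, Ube2c and Rrm1. The order was the reverse for 4 of the 29, against 1883 of all 13151 genes: Ccnd1, Pcna, Rrm2 and Tk1. Rrm2 was at -0.61 there (interval -1.02 to -0.20, adjusted p = 0.0877). The labels state the same dose and schedule for both compounds, but the dose of each is uncertain. The cause of the differences between the compounds was not tested.

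The 5 genes of the clamp and of nucleotide supply passed in no comparison, and Tk1 and Pcna among them were the most abundant of the 39. Tk1, which salvages thymidine, was at 60.1, 78.1 and 43.3 CPM with vehicle, 64.3, 54.0 and 55.4 with AdipoRon and 41.5, 48.0 and 47.7 with AdipoRonPEG5. Its difference of AdipoRonPEG5 from vehicle was -0.40 (interval -0.78 to -0.029, adjusted p = 0.131), and -0.59 without vehicle 3, where it passed (adjusted p = 0.00853). Pcna, the sliding clamp, was at 30.2, 33.3 and 30.0 CPM with vehicle, 33.6, 29.3 and 30.5 with AdipoRon and 27.3, 25.0 and 26.7 with AdipoRonPEG5. All AdipoRonPEG5 libraries of Pcna lay below all others, and the difference from vehicle was -0.24 (interval -0.42 to -0.060, adjusted p = 0.0680). In FPKM, Tk1 (23.3) and Pcna (19.6) led all 39 genes in vehicle. Rrm1, the large subunit of ribonucleotide reductase, was at 0.43 (interval 0.081 to 0.78, adjusted p = 0.0877) with AdipoRonPEG5 against vehicle, and passed without AdipoRonPEG5 1 (0.57, adjusted p = 0.0357). Its partner Rrm2, the S-phase subunit, was at 7.31 ± 0.195 CPM with vehicle, 9.23 ± 0.727 with AdipoRon and 6.03 ± 1.71 with AdipoRonPEG5, and the thymidylate synthase gene Tyms at 7.31 ± 0.276, 5.97 ± 1.35 and 7.79 ± 1.58 (SD, n = 3). Behind these 0 calls with AdipoRonPEG5 against vehicle, 1 gene was higher and 2 were lower at an unadjusted p under 0.05, and DESeq2 and limma-voom each called 0. The 3 most abundant genes hold 47.2% to 67.8% of the summed CPM of the 39 in a library. That sum was 146 to 185 CPM with vehicle, 174 to 194 with AdipoRon and 158 to 183 with AdipoRonPEG5. The genes that passed with AdipoRonPEG5 against vehicle made up 12.5 to 15.8, 21.0 to 25.6 and 28.0 to 41.8 CPM of it. The sum is thus mostly that of other genes.

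Of 9 tested genes of mitotic kinases, the spindle and the anaphase-promoting complex, Ube2c alone passed. It encodes the ubiquitin-conjugating enzyme that serves the anaphase-promoting complex, and was at 0.206, 0.224 and 0.372 CPM with vehicle, 0.617, 0.555 and 0.478 with AdipoRon and 0.925, 1.14 and 1.05 with AdipoRonPEG5. The 3 groups did not overlap: AdipoRonPEG5 was 2.03 ± 0.35 above vehicle (adjusted p = 0.00345), AdipoRon 1.12 ± 0.39 above vehicle (adjusted p = 0.119), and the compounds were 0.91 apart (interval 0.21 to 1.61, adjusted p = 0.125). Its exons share 22.8% of their bases with Tnnc2 on the other strand. Cdc20, which activates the same complex, was at 0.231, 0.0747 and 0.149 CPM with vehicle, 0.617, 0.222 and 0.00 with AdipoRon and 0.679, 0.934 and 0.617 with AdipoRonPEG5. Its AdipoRonPEG5 libraries were all above vehicle, at 2.05 (interval 0.55 to 3.54, adjusted p = 0.0619), and it passed without AdipoRon 1 or AdipoRon 3 (adjusted p = 0.0359 and 0.0266). Without vehicle 1 its difference was 2.66.

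The remaining mitotic genes tested, 7 of them, passed in no comparison. For AdipoRonPEG5 against vehicle, the checkpoint kinase gene Bub1b was at 1.01 (interval -0.28 to 2.30), Prc1, which bundles the spindle midzone, at 0.70 (-0.28 to 1.68), Kif11, the motor that separates spindle poles, at 0.66 (-0.056 to 1.37) and the kinase gene Aurka at 0.25 (-0.18 to 0.69). Birc5 and Cdca8 of the chromosomal passenger complex and the spindle protein gene Nusap1 were at 2.22 ± 0.740, 1.24 ± 0.357 and 0.763 ± 0.0786 CPM with vehicle and 1.72 ± 0.492, 1.13 ± 0.249 and 0.870 ± 0.309 with AdipoRonPEG5 (SD, n = 3). With AdipoRonPEG5, 0 of the 7 passed an unadjusted p under 0.05, and DESeq2 and limma-voom each called 0. Over the 29 tested genes, every AdipoRonPEG5 library was above every vehicle library for 14, against 18.2% of all genes, and every AdipoRon library for 7, against 14.4%. All were below vehicle for 1 gene with AdipoRonPEG5 (Pcna), against 2241 of all 13151 genes, and for 0 with AdipoRon, against 1625.

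The 10 untested genes (Ccna2, Ccnb1, Cdc6, Gins2, Aurkb, Plk1, Bub1, Tpx2, Cenpe and Cenpf) were near the limit of these libraries, where 3 counts equal 0.0760 to 0.215 CPM. Together they gave 51, 22 and 21 counts in the vehicle libraries, 61, 69 and 34 with AdipoRon and 43, 122 and 66 with AdipoRonPEG5. Scaled to depth, that is 1.31 to 1.64 CPM with vehicle, 2.32 to 3.83 with AdipoRon and 2.65 to 6.33 with AdipoRonPEG5, and neither compound overlapped vehicle; a sum of this kind has no test here. When the count filter was dropped, 1 of the 10, the kinetochore gene Cenpf, passed for AdipoRonPEG5 against vehicle (adjusted p = 0.00903), on 2 counts with vehicle and 22 with AdipoRonPEG5.

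AdipoRonPEG5 1 was the lowest of its group for 23 of the 39 genes, and for 9 of the 11 that were called, while AdipoRonPEG5 2 was the highest for 19. In the AdipoRon group, library 3 was the lowest for 23. No vehicle library stood out as low: vehicle 1, 2 and 3 were the lowest for 14, 11 and 14 of the 39, and for 4, 4 and 3 of the 11.

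The wider pathway was described through 140 further genes in 6 lists. Here too, a gene that vehicle libraries hardly express could be tested only through the compound groups. The shares called higher in these lists can therefore depend on the filter, and how far they do was not tested. Of 37 genes of mitosis and cytokinesis, 21 were tested and 16 were not. Of the 21, 8 rose and 1 fell with AdipoRonPEG5 against vehicle (38.1% and 4.76%, against 9.55% and 7.63% of all genes). With AdipoRon 2 rose (9.52%, against 3.80%). Between the compounds 0 differed in edgeR (3 higher and 2 lower at an unadjusted p under 0.05, DESeq2 2 and 1, limma-voom 0). The largest was Racgap1, which with the motor Kif23 forms the centralspindlin complex of the dividing cell's midzone. Racgap1 was at 0.129, 0.149 and 0.00 CPM with vehicle, 0.926, 0.611 and 0.752 with AdipoRon and 0.802, 0.986 and 0.555 with AdipoRonPEG5. Every vehicle library of Racgap1 was thus under the filter's 0.627 CPM. With AdipoRonPEG5 it rose by 2.83 ± 0.54 (adjusted p = 0.00572), with AdipoRon by 2.78 ± 0.55 (adjusted p = 0.0183), and Kif23 by 2.18 ± 0.46 (adjusted p = 0.00877) and 2.35 ± 0.45 (adjusted p = 0.0166). Without vehicle 1 the AdipoRon calls of both were lost (adjusted p = 0.0775 for Kif23), and that of Racgap1 also without vehicle 2 or AdipoRon 1 (adjusted p = 0.0513 to 0.0641). Spc25, a subunit of the kinetochore's Ndc80 complex, rose by 1.03 ± 0.21 (adjusted p = 0.00738) with AdipoRonPEG5. The others that rose were Ect2, Nek2, Tacc3, Smc4 and Ncaph. Hjurp, a histone chaperone of centromeres, fell by 0.39 with AdipoRonPEG5 (SE 0.074, adjusted p = 0.00539), from 146 to 149 CPM in vehicle to 107 to 120 CPM. Hjurp shares no exon base with another gene in GENCODE M21, but the annotation behind the counts is not given, so whether reads of a neighbouring transcript were counted for it is uncertain.

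Of 29 tested genes that control the G1 to S step or mitotic gene expression, 1 rose with AdipoRonPEG5 against vehicle and against AdipoRon in edgeR (3.45%, against 9.55% and 2.68% of all genes). At an unadjusted p under 0.05, 9 of the 29 were higher and 2 lower with AdipoRonPEG5 against vehicle, against 2144 and 1990 of all 13151 genes. DESeq2 called 2 of the 29 higher and limma-voom 3, and each 0 lower. With AdipoRon 0 changed in edgeR (5 higher and 1 lower at an unadjusted p under 0.05, DESeq2 2 and 1, limma-voom 1 and 0). The gene that rose in edgeR was E2f1, the E2F factor that activates replication genes: 2.93, 2.77 and 3.05 CPM with vehicle, 3.27, 3.05 and 2.39 with AdipoRon, and 4.63, 5.71 and 6.17 with AdipoRonPEG5. It was higher with AdipoRonPEG5 by 0.91 ± 0.18 against vehicle (adjusted p = 0.00658) and by 0.92 ± 0.18 against AdipoRon (adjusted p = 0.0189), the latter lost without AdipoRon 3, AdipoRonPEG5 2 or AdipoRonPEG5 3 and with a replicate block (adjusted p = 0.0528 to 0.0726). Ccnd2, another D-type cyclin, was at 0.12 (interval -0.42 to 0.65) with AdipoRonPEG5 against vehicle. The mitotic gene activator Foxm1 was too low to be tested, at 0.0771 to 0.224 CPM with vehicle, 0.222 to 0.555 with AdipoRon and 0.185 to 0.831 with AdipoRonPEG5.

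Of 24 tested genes of the replication fork, 2 rose with AdipoRonPEG5 against vehicle in edgeR (8.33%, against 9.55% of all genes): Chaf1a, a chaperone that lays histones on new DNA (1.45 ± 0.28, adjusted p = 0.00665), and the maintenance methyltransferase gene Dnmt1 (0.52 ± 0.15, adjusted p = 0.0374). At an unadjusted p under 0.05, 6 of the 24 were higher and 0 lower. DESeq2 called 2 higher and limma-voom 3. For 9 of the 24 every AdipoRonPEG5 library was above every vehicle library, against 18.2% of all genes, and for 0 below. Chaf1a shares 52.5% of its exon bases with Ubxn6 on the other strand. The Dnmt1 call was lost when any 1 vehicle library but the third, or any 1 AdipoRonPEG5 library, was left out, and with a replicate block (adjusted p = 0.0523 to 0.134). None of the 24 passed in the other comparisons in edgeR (3 higher at an unadjusted p under 0.05 with AdipoRon and 1 between the compounds, DESeq2 and limma-voom 0). The list of further origin licensing and firing genes gave 0 of 13 with AdipoRonPEG5 against vehicle in edgeR, against 9.55% of all genes higher. At an unadjusted p under 0.05, 2 were higher, against 2144 of all 13151 genes, and DESeq2 and limma-voom called 0. Differences were positive for 9 and negative for 4. For 4 of the 13 every AdipoRonPEG5 library lay above every vehicle library, against 18.2% of all genes, and for 0 below. Whether the rise of licensing genes described above extends to this list was not tested. The lowest p of the list was that of Dbf4, the activator of the Cdc7 kinase, at 0.72 (interval 0.22 to 1.22, adjusted p = 0.0510). Dbf4 passed with total-count scaling and with genes kept from a mean of 1 CPM (adjusted p = 0.0351 and 0.0493).

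Inhibitors of the cycle and p53 targets gave 0 of 14 in every comparison in edgeR, DESeq2 and limma-voom; at an unadjusted p under 0.05, 1 was lower with each compound against vehicle, and 3 were higher and 1 lower between the compounds. Cdkn1b, the p27 inhibitor of cyclin-dependent kinases, was at 31.8 ± 2.70 CPM (SD, n = 3) with vehicle and 24.5 ± 4.16 with AdipoRonPEG5, without overlap (-0.37, interval -0.65 to -0.092, adjusted p = 0.0681), and passed without AdipoRonPEG5 1 (-0.48, adjusted p = 0.0416) and with a replicate block (-0.38, adjusted p = 0.0458). Cdkn1a, the p21 inhibitor and p53 target, ranged from 2.13 to 4.63 CPM with vehicle, 1.72 to 9.69 with AdipoRon and 3.33 to 3.95 with AdipoRonPEG5 (0.27, interval -0.87 to 1.41).

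Of 14 genes of growth signals to hepatocytes and their receptors, 11 were tested. With AdipoRonPEG5 against vehicle, 5 were higher and 1 lower (45.5% and 9.09%, against 9.55% and 7.63% of all genes). With AdipoRon, 2 were higher (18.2%, against 3.80%). Myc, the transcription factor of growth, was at 1.70, 2.99 and 1.93 CPM with vehicle, 14.0, 11.3 and 4.85 with AdipoRon and 5.37, 16.6 and 19.6 with AdipoRonPEG5; every compound library was above vehicle. The rise of Myc with AdipoRonPEG5 was 2.71 ± 0.51 (adjusted p = 0.00531); that with AdipoRon was 2.26 ± 0.51 (adjusted p = 0.0320) and was lost in 8 of 19 settings, among them the omission of any 1 vehicle library, of AdipoRon 1 or of AdipoRon 2 (adjusted p = 0.0523 to 0.104 over the 8). Tnf, a cytokine that primes hepatocytes for division, rose by 3.03 ± 0.60 and 3.32 ± 0.58 (adjusted p = 0.00685 and 0.0108) from 0.00 to 0.103 CPM in vehicle. Every vehicle library of Tnf was thus under the filter's 0.627 CPM. Without vehicle 1 the rises of Tnf were 3.87 and 4.16. Hbegf, a ligand of the EGF receptor, rose by 1.32 ± 0.35 with AdipoRonPEG5 (adjusted p = 0.0254), a call lost in 9 of 18 settings, among them the omission of any 1 vehicle library, of AdipoRonPEG5 1 or of AdipoRonPEG5 2 (adjusted p = 0.0509 to 0.133 over the 9). Tgfa and Tnfrsf1a also rose. Il6ra, the receptor of interleukin 6, fell by 0.68 (SE 0.19) against vehicle (adjusted p = 0.0305) and by 0.76 (SE 0.19) against AdipoRon (adjusted p = 0.0424); the first call was lost in 7 of 19 settings, among them the omission of vehicle 1, vehicle 2, AdipoRonPEG5 1 or AdipoRonPEG5 2 (adjusted p = 0.0520 to 0.105 over the 7). The second was lost in 8 of 19, among them the omission of vehicle 2, AdipoRon 1, AdipoRon 3 or any 1 AdipoRonPEG5 library (adjusted p = 0.0545 to 0.139 over the 8).

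**Figure D4:**
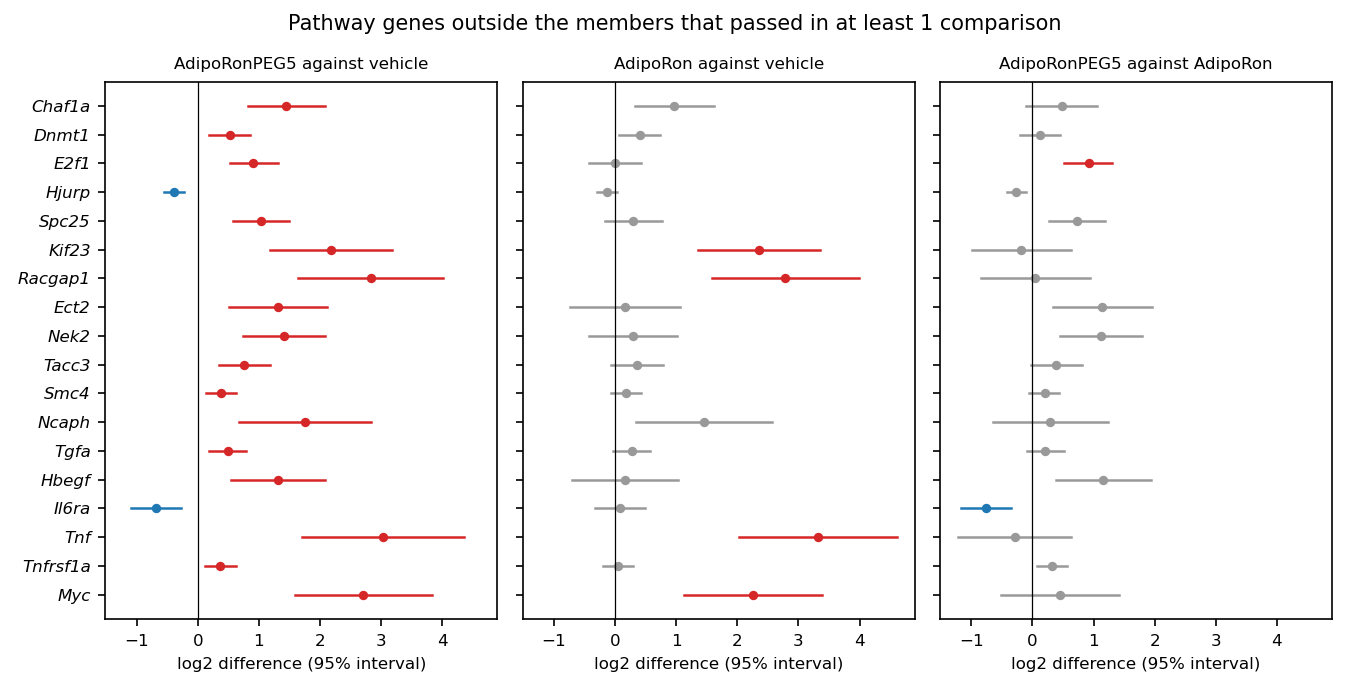
Log2 differences with 95% intervals of the 18 genes from the 6 pathway lists that passed in at least 1 comparison; red passed as higher, blue as lower, grey did not pass. Racgap1, Kif23, Tnf and Myc are red against vehicle for both compounds, and E2f1 is red in both comparisons of AdipoRonPEG5.

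Markers of macrophages and monocytes also differed between the groups. For the counts below, 9.55% of all genes tested were higher and 7.63% lower with AdipoRonPEG5 against vehicle. With AdipoRon these shares were 3.80% and 1.40%, and between the compounds 2.68% and 2.71%. The 11 markers of macrophages and Kupffer cells, the resident macrophages of the liver, summed to 189 to 273 CPM with vehicle, 453 to 801 with AdipoRon and 701 to 736 with AdipoRonPEG5; all 11 passed as higher with AdipoRonPEG5 and 10 with AdipoRon, and none was at 0. Between the compounds 0 of the 11 passed in edgeR (1 higher at an unadjusted p under 0.05, DESeq2 and limma-voom 0). Markers of recruited monocytes summed to 15.8 to 24.1, 41.4 to 62.9 and 64.1 to 94.1 CPM, with 6 of 6 tested higher with AdipoRonPEG5, 1 with AdipoRon and 3 between the compounds. Most of this sum was Lyz2, at 14.1 to 20.9, 37.5 to 58.7 and 54.6 to 80.4 CPM. Lyz2 was also the 1 marker of this list that passed with AdipoRon. Lymphocyte markers were scarce: T and NK cell markers summed to 2.75 to 4.69, 5.19 to 7.77 and 5.36 to 7.03 CPM, and B and plasma cell markers to 1.49 to 2.24, 2.94 to 3.95 and 4.15 to 5.00. Of 5 tested T and NK cell markers, Cd3e and Ccl5 were higher with AdipoRonPEG5 against vehicle (3.03 and 2.25, adjusted p = 0.0282 and 0.00163) and Cd4 was lower (-1.40, adjusted p = 0.0458); with AdipoRon, Cd3e alone passed, as higher. Of 4 tested B and plasma cell markers, Cd79a and Cd79b were higher with AdipoRonPEG5, and Cd79b with AdipoRon. The 8 hepatocyte markers, which check the tissue label, summed to 83434 to 91712 CPM with vehicle, 71234 to 78592 with AdipoRon and 76716 to 85065 with AdipoRonPEG5. Against vehicle, 3 of 8 passed as lower with AdipoRonPEG5 and 0 with AdipoRon in edgeR. For AdipoRon, 3 were lower at an unadjusted p under 0.05, DESeq2 called 3 lower and limma-voom 0. The part of these cell types in the cell cycle results was not tested.

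**Figure D5:**
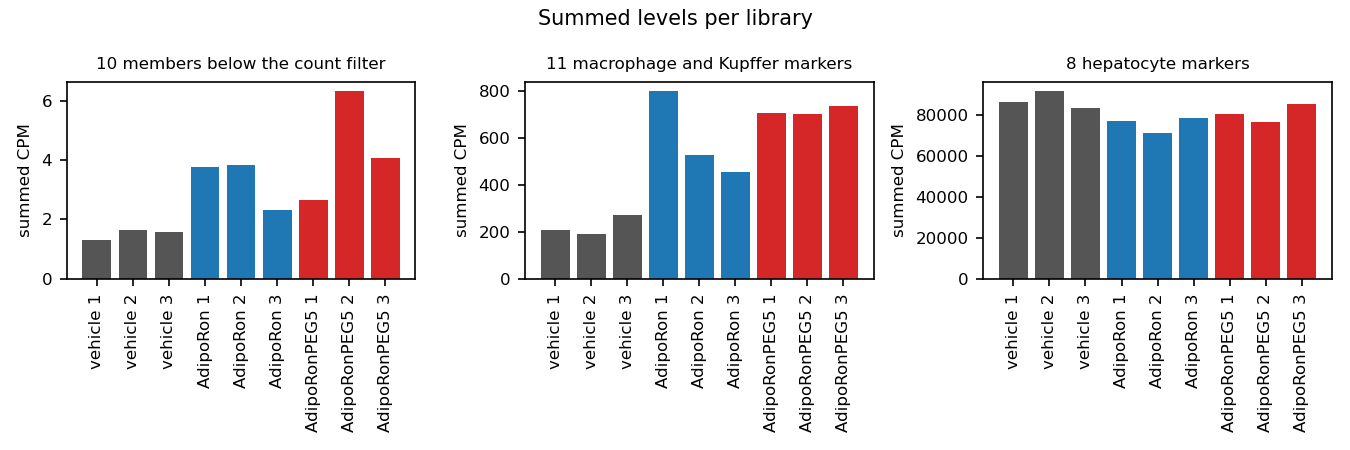
Summed CPM in each of the 9 libraries of the 10 untested cell cycle genes, of 11 macrophage and Kupffer cell markers and of 8 hepatocyte markers; bars start at 0. In the left and middle panels all 6 compound libraries stand above the 3 vehicle libraries, and in the right panel the AdipoRon bars lie below the vehicle bars.

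Total counts were 39473195 in vehicle 1 and 13942322 to 18508950 in the other 8 libraries. Acute phase genes summed to 20369 CPM in vehicle 3 and 12049 in AdipoRonPEG5 1, against 3564 to 6469 in the others. With both of those left out, 14 cell cycle genes were called for AdipoRonPEG5 against vehicle (13 higher and 1 lower), 10 of them among the 11.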

How the data were processed

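Gene-level read counts of 9 mouse liver libraries were used as the authors deposited them; the authors' FPKM, deposited beside them, served only to compare levels between genes per length. The submitters' processing notes list, without saying what each did, edgeR, DESeq2, HTSeq 0.6.1, STAR 2.5 and TopHat. Genome build, annotation and strand setting are not given in the sources used here, so reads of overlapping genes or near-identical copies could be split between them.

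The main test was that of edgeR 4.0.16 under R 4.3.3 (TMM, filterByExpr, quasi-likelihood fit, robust set to FALSE) on all 9 libraries with 3 group means, Benjamini-Hochberg adjusted over 13151 genes at 0.05. SE and 95% intervals come from the fit; its calls and directions, not its intervals, were tested on simulated data. The limit of 3 counts covers counting error only. Alternatives were DESeq2 1.42.0, limma 3.58.1 with voom, other scalings and filters, a replicate block, only the groups compared, vehicle 1 thinned to 15795230 counts, and omission of libraries. Libraries within groups differed beyond sampling noise.

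The genes and lists were chosen with earlier results of these data known, so counts over them are descriptions. Given in full were called members, the 2 uncalled members of lowest p in each role, up to 4 called genes (else the gene of lowest p) in each pathway list, and Cdkn1a, Ccnd2, E2f1, Foxm1 and Myc. Tk1 and other genes named beyond that rule were chosen after their values were seen. Exon overlaps came from GENCODE M21. A further PEGylated compound in the protocol is not analysed here.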

Additional observations from a re-analysis of the deposited data

How the results depend on the processing

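For AdipoRonPEG5 against vehicle, Mki67, Top2a, Mcm3, Mcm4 and Mcm6 kept their calls in all 19 other settings, and Ube2c and Uhrf1 in the 18 in which they were tested. Leaving out 1 library at a time gave 7 to 13 genes higher, with 7 without AdipoRonPEG5 3, and 0 to 1 lower; with vehicle 3 and AdipoRonPEG5 1 both left out, 1 gene was lower. For AdipoRon against vehicle the same omissions gave 0 to 3 genes higher. Between the compounds they gave 0 to 2 higher and 0 to 1 lower. There, the count higher was 1 with total-count scaling and with vehicle 1 thinned, and 2 with no filter, with DESeq2, with only the 2 groups compared and with both libraries left out. The count lower was 0 with total-count scaling, with genes kept from a mean of 1 CPM, with limma-voom, with the replicate block and with both libraries left out.

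With replicate number as a block, 11 genes were higher with AdipoRonPEG5 and 2 with AdipoRon. Deviations of same-numbered libraries correlated at -0.27 to 0.08 over 9 pairs and those of other numbers at -0.30 to 0.32 over 18. The labels do not say whether a number pairs libraries, and so few pairs cannot settle it.

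Signs turned for values near 0. Omitting 1 library at a time, AdipoRonPEG5 against vehicle ranged from -0.56 to 0.11 for Ccnd1 (positive without vehicle 1) and -0.0039 to 0.63 for Cdkn1a (negative without vehicle 1). It ranged from -0.24 to 0.027 for Ccne2 (positive without vehicle 3) and -0.077 to 0.37 for Ccnd2 (negative without vehicle 3). With vehicle 3 and AdipoRonPEG5 1 both left out, Ccnd2 was at -0.036. AdipoRon against vehicle ranged from -0.029 to 0.39 for Mcm2, negative without vehicle 2. Between the compounds, Mki67 ranged from -0.31 to 0.23 (positive without AdipoRon 1 or AdipoRonPEG5 1). With vehicle 3 and AdipoRonPEG5 1 both left out, Mki67 was at 0.24. Cdk1 ranged from -0.10 to 0.35 (negative without AdipoRon 1, AdipoRon 3 or AdipoRonPEG5 3). Apart from the smaller number of libraries or genes in these settings, the cause was not tested. Depth limits the 10 untested genes and the 9 that fall under 0.627 CPM in a vehicle library.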

Other observations

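Stellate cell and matrix markers summed to 126 to 167 CPM with vehicle, 164 to 198 with AdipoRon and 176 to 202 with AdipoRonPEG5. Of these markers, 1 of 9 was higher with AdipoRonPEG5 against vehicle in edgeR (11.1%, against 9.55% of all genes). At an unadjusted p under 0.05, 7 of the 9 were higher and 0 lower, against 2144 and 1990 of all 13151 genes. DESeq2 called 2 higher and limma-voom 3. In the same order of groups, endothelial markers summed to 94.8 to 113, 93.2 to 124 and 106 to 118 CPM, cholangiocyte markers to 44.2 to 62.0, 50.5 to 66.6 and 43.6 to 59.0, and platelet markers to 4.33 to 5.06, 4.72 to 6.33 and 5.86 to 6.35. Erythroid markers summed to 235 to 870, 250 to 430 and 477 to 648 CPM. Markers of fetal or progenitor hepatocytes were at 2.99 to 3.83, 3.95 to 5.13 and 4.07 to 5.24 CPM, with Dlk1 at 0 counts in every library. Neutrophil markers were at 0.488 to 1.26, 0.864 to 1.11 and 1.05 to 4.13 CPM, and none of the 7 had enough counts for edgeR's test; DESeq2, run without that filter, called S100a8 and S100a9 higher with AdipoRonPEG5 against vehicle (2.33 and 2.20, adjusted p = 0.0179 and 0.0371). Ly6g was at 0 counts in every library.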
